A study of Mus musculus with 19 samples.

Results

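The genes described here form the route by which resting ovarian follicles are thought to be woken: Kitl and Kit, a secreted or membrane-held ligand and its receptor, Pik3ca and Akt1, kinases that relay the signal, Foxo3, a transcription factor that AKT shuts out of the nucleus, and Tsc1, Tsc2 and Mtor, the brake and the kinase of the growth pathway. They were chosen by symbol, 8 of the 36172 genes in the deposited table, and all 8 are among the 15518 that passed the filter on low counts. The RNA was that of ovaries of C57BL/6 females, an inbred mouse strain, at 3 months of age (5 libraries), 6 months (5), 9 months (5) and 12 months (4). The labels name no treatment or engineered allele. The labels do not say whether a library is 1 mouse or a pool, nor the stage of the oestrous cycle. Adjusted p-values therefore rest on differences among libraries that could be technical repeats.

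A primordial follicle is an oocyte arrested in meiosis and wrapped in a flat layer of pregranulosa cells, and the stock of such follicles is laid down around birth and used up over life. KIT ligand, made by granulosa cells, binds the receptor tyrosine kinase KIT on the oocyte, and KIT recruits phosphoinositide 3-kinase (PI3K), whose lipid product brings AKT to the membrane. AKT phosphorylates FOXO3, which holds the oocyte dormant while it is nuclear, and the TSC1-TSC2 complex, which restrains mTOR complex 1, so that signalling releases both brakes. KIT is also carried by mast cells and by theca and interstitial cells, and most of the downstream genes are expressed in nearly every cell type. These steps are largely controlled by phosphorylation and by movement between cell compartments, neither of which an RNA measurement reads.

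Library totals ran from 10851519 to 14302207 estimated counts. Beside the 8 genes, markers of several cell types in the ovary moved with age. Of 16 oocyte markers 15 were lower at 12 than at 3 months, and their summed level ran from 339.2 to 541.3 CPM (counts scaled to library size) at 3 months and from 65.8 to 162.9 CPM at 12 months. Of all genes tested 11.5% were called lower and 10.9% higher between these ages, a share that the corpus luteum count below is near. Of the other lists between these ages, 3 of 10 granulosa cell markers and 4 of 8 theca and interstitial markers were lower. Higher were 5 of 6 mast cell markers tested, 4 of 7 macrophage, 4 of 6 lymph node, 4 of 5 smooth muscle, 3 of 6 endothelial, 2 of 7 oviduct and 1 of 8 corpus luteum markers, while 0 of 6 liver markers passed (edgeR; Apoa1, 1 gene, with unadjusted p under 0.05). The lymph node gene Cr2 exceeded 5 CPM in 9 month replicates 1 and 2 and in 12 month replicate 2, and liver markers were raised in 9 month replicates 1 to 4. Every defining oocyte and granulosa marker on the lists was detected, which fits the ovary label, whereas the smooth muscle gene Acta2 and the mast cell gene Ms4a2 were listed at 0 in every library, which may be a failed estimate rather than absence of the RNA.

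Between 3 and 12 months 1 of the 8 genes passed the test, Kitl, which fell, where 22.4% of all genes tested were called in either direction and 11.5% as lower. The other 7 were not called, and the median log2 change of the 8 was -0.05, beside 0.02 over all genes tested. In the linear trend with age the same count, 1 of 8 (Kitl), stood beside 29.5% of all genes, and in the test of any difference between the ages it was again 1 of 8 (Kitl), beside 29%. Between 9 and 3 months 0 of 8 were called (edgeR; 0 with unadjusted p under 0.05), beside 25% of all genes. Between 6 and 3 months 0 of 8 were called (edgeR; Tsc2, 1 gene, with unadjusted p under 0.05), beside 0.0193%. Between 12 and 9 months 0 of 8 were called (edgeR; Kitl and Pik3ca, 2 genes, with unadjusted p under 0.05), beside 0%, and between 9 and 6 months 0 of 8 (edgeR; 0 unadjusted), beside 17.2%. DESeq2, limma-voom and limma on the authors' log2 values gave the same counts of members in all 7 tests.

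**Figure D1:**
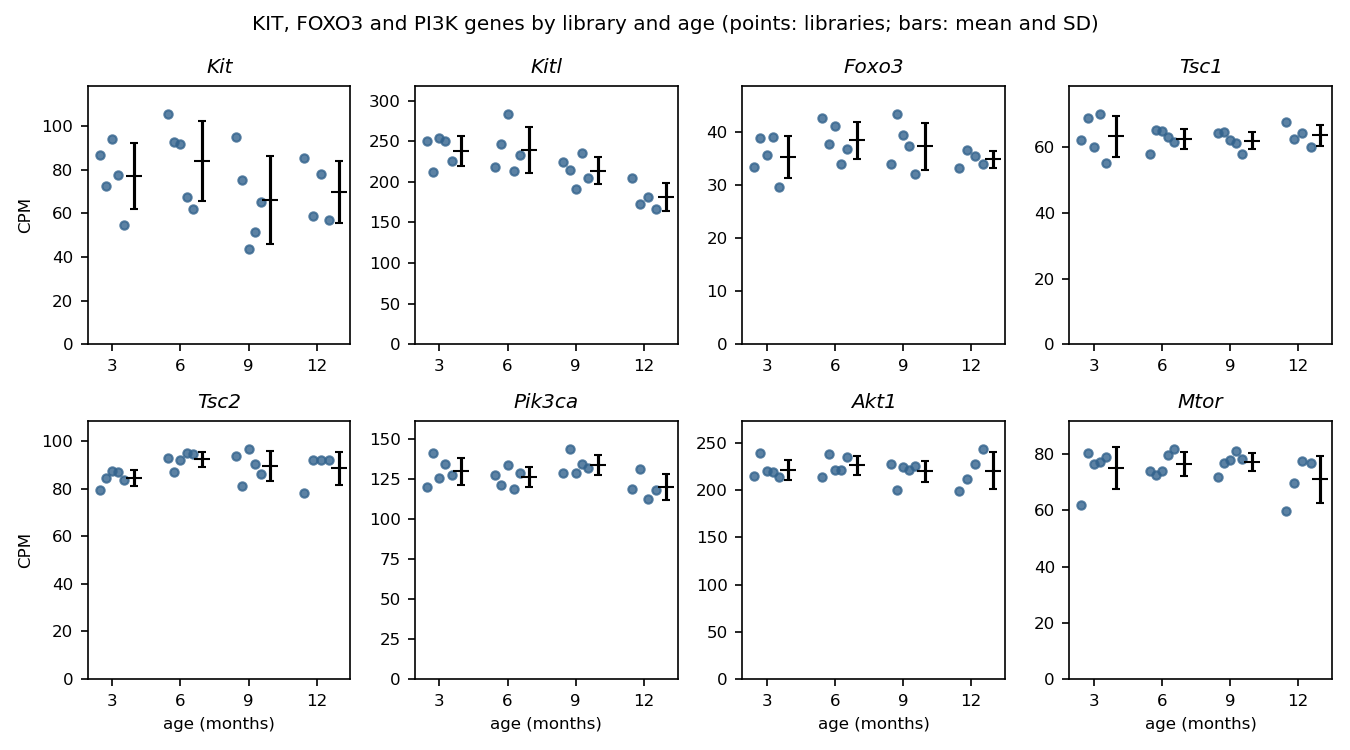
CPM (vertical axes, starting at 0) of each of the 8 genes in every library (points) at 3, 6, 9 and 12 months, with the mean and SD beside them. Kitl at 12 months lies below every 3 month library, at 166 to 205 CPM against 212 to 254 CPM, and Kit spreads widely within each age.

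The receptor and its ligand open the route, and the 250 bases upstream of their RefSeq starts (build GRCm38.p6) are shown because the ligand was the 1 gene of the 8 that changed and the receptor is its partner. Kit lies on chromosome 5 from 75574916 to 75656722 (plus strand, 21 exons in the longest transcript) and Kitl on chromosome 10 from 100015630 to 100100416 (plus strand, 10 exons), by GENCODE coordinates in mm10. GENCODE places its first start of both genes inside the printed windows, which are chr5:75574737-75574986 and chr10:100015571-100015820, both read on the plus strand. Capitals mark exact matches to GGGCGG (the GC box) or TATAAA (the TATA box) or their reverse complements.
Kit: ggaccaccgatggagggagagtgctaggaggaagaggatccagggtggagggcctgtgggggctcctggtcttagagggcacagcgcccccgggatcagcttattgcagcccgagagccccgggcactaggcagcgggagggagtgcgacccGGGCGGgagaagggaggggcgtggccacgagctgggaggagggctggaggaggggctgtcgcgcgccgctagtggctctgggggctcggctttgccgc
Kitl: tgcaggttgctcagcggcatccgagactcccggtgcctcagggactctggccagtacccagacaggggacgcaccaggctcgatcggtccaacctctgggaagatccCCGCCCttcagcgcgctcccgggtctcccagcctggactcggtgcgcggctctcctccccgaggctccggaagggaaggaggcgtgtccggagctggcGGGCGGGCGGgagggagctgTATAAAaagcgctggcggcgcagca
The Kit window was 70.8% G and C with 17 CpG pairs and the Kitl window 69.2% with 23, where the median over 32851 promoters was 52.4% and 6 CpG pairs. The Kit window held GGGCGG once (1 match) and the Kitl window 3 times, with 2 of those matches overlapping, and 32.7% of all promoters held at least 1. Kitl held TATAAA 25 bases before its start, a string in 12.4% of all promoters and in none of the windows of the other 7 genes. The FOXO core TGTTTAC, found in 3.17% of all promoters, was absent from both windows and present among the 8 genes in 1 of the 2 Akt1 windows. TGACGTCA, the cyclic AMP response element (1.55% of promoters), matched none of the 8, its part TGACG (17.8%) matched Foxo3 and Tsc1, and CCAAT (33.8%) matched Mtor 4 times. Both strands were searched for each string, and a match is a description of the letters only.

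Kitl encodes KIT ligand, also called stem cell factor. Its level was 251, 212, 254, 249.7 and 226 CPM in the 3 month libraries and 218, 247, 284, 213 and 233 CPM at 6 months. At 9 months it was 224, 214, 191, 235 and 205 CPM, and at 12 months 205, 173, 181 and 166 CPM. The 12 month libraries were all below the 3 month libraries, while the 6 and 9 month libraries overlapped with those of 3 months. Kitl was the 1 gene of the 8 without overlap between 3 and 12 months, where 16.5% of all genes tested did not overlap. None of the 8 separated 9 from 3 months or 6 from 3 months, beside 14.9% and 3.64% of all genes.

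The mean of Kitl was 238.3 ± 18.6 CPM at 3 months (SD, n = 5), 238.9 ± 28.4 CPM at 6 months (n = 5), 213.8 ± 17 CPM at 9 months (n = 5) and 181.3 ± 17 CPM at 12 months (n = 4). Its log2 change from 3 to 12 months was -0.39 (SE 0.087, 95% confidence interval -0.58 to -0.21; edgeR adjusted p = 0.00473), a fold of 0.761. Fewer ligand-making cells and less Kitl RNA per cell cannot be told apart in bulk RNA. The trend over 9 months was -0.39 (SE 0.088; edgeR adjusted p = 0.00311). The steps within that span did not pass: 0.00 from 3 to 6 months (edgeR adjusted p = 0.99), -0.16 from 6 to 9 months (adjusted p = 0.184) and -0.24 from 9 to 12 months (SE 0.087, edgeR adjusted p = 0.248). From 3 to 9 months the change was -0.16 (SE 0.081, edgeR adjusted p = 0.168).

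The call on Kitl at 12 months held without each of the 19 libraries in turn (log2 change -0.46 to -0.36; edgeR adjusted p = 0.00321 to 0.017). Without the 3 libraries with lymph node transcripts it was -0.37 (edgeR adjusted p = 0.0117). With the mean of the oocyte list as a covariate, added after seeing the data, the change was -0.43 and no longer passed (edgeR adjusted p = 0.2), in a fit that called 17 of all 15518 genes. Over the 19 libraries Kitl was compared with 11 marker lists among 88 relations of genes with lists. Its lowest p by Pearson r belonged to the theca and interstitial list (Pearson r 0.54, permutation p = 0.017, adjusted 0.335; Spearman rho 0.54, permutation p = 0.018, adjusted 0.489). After the mean of each age was subtracted, that r was -0.18. With the oocyte list r was 0.47 (permutation p = 0.0448, adjusted 0.458; rho 0.57, p = 0.0132, adjusted 0.489), or -0.08 within ages, and without the 2 libraries farthest from the median it was 0.47. By rank the oocyte list had a lower p than the theca and interstitial list. None of the 88 relations passed after adjustment, and the part of the cell type markers in the fall of Kitl was not tested beyond these values.

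**Figure D2:**
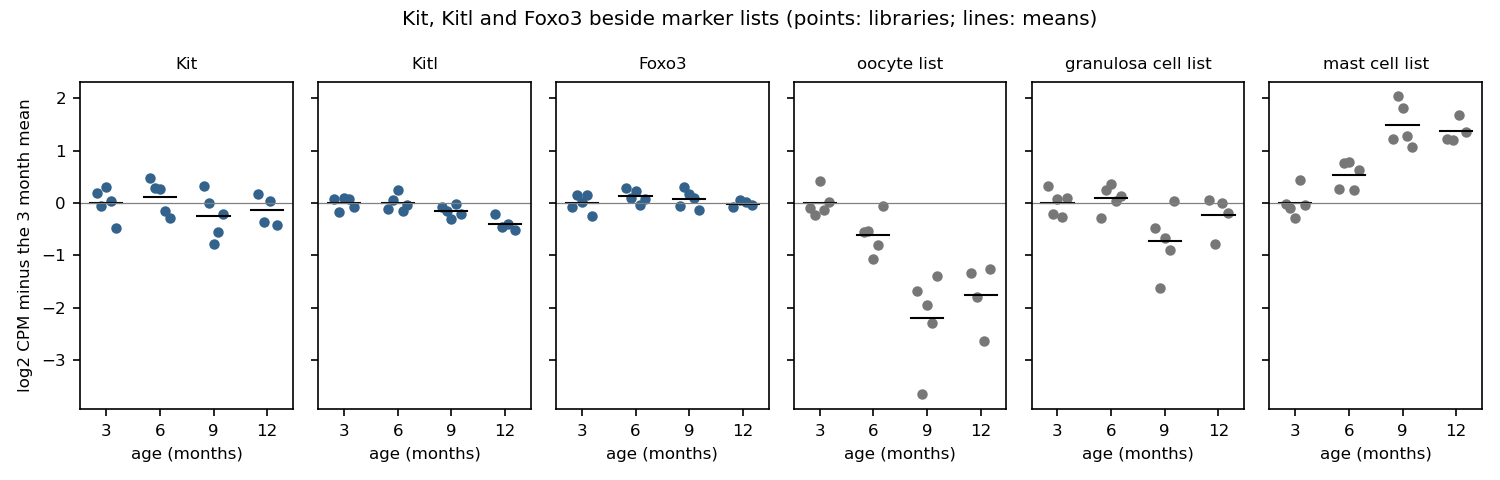
Kit, Kitl and Foxo3 and the mean log2 CPM of the oocyte, granulosa and mast cell marker lists (vertical axis, log2 CPM minus the 3 month mean) in each library by age in months, with lines at the mean of each age. The oocyte list falls and the mast cell list rises by more than 1 unit, whereas Kitl at 12 months fell by 0.39 and Foxo3 stays near 0.

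Kit encodes the receptor of that ligand. Its level was 86.9, 72.3, 94.0, 77.4 and 54.6 CPM at 3 months, 105.7, 92.6, 91.7, 67.7 and 62.0 CPM at 6 months, 95.1, 75.5, 43.9, 51.3 and 65.1 CPM at 9 months and 85.6, 58.8, 78.0 and 56.9 CPM at 12 months. High and low libraries occurred at every age, and the ranges of the 4 ages overlapped. The means were 77.0 ± 15.1 (SD, n = 5), 83.9 ± 18.4 (n = 5), 66.2 ± 20.2 (n = 5) and 69.9 ± 14.2 CPM (n = 4) in order of age. The log2 change from 3 to 12 months was -0.14 (SE 0.22; edgeR adjusted p = 0.679), with a 95% interval of -0.60 to 0.31. That interval holds the size of the change of Kitl, so a fall of the same size was not detectable for Kit at this spread. At 6 months Kit differed from 3 months by 0.12 (edgeR adjusted p = 0.858) and at 9 months by -0.22 (edgeR adjusted p = 0.462), and its trend was -0.24 (edgeR adjusted p = 0.402).

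The difference between ligand and receptor was tested on the log2 ratio of Kitl to Kit within a library. The ratio averaged 1.65 ± 0.24 (SD, n = 5) at 3 months and 1.39 ± 0.18 (n = 4) at 12 months, a difference of -0.26 (exact two-sided permutation p = 0.143 over 126 splits). Of 10 such ratios tested between 3 and 12 months, 7 set Kitl against the other genes, and they were chosen after the fall of Kitl was seen. The adjustment over the 10 tests does not cover that choice, so these ratios restate the fall of Kitl and are not further support for it. The ratio of Kitl to Tsc1 fell by 0.41 (exact permutation p = 0.0159, adjusted over the 10 tests 0.0398), with no overlap between the ages. Kitl to Tsc2 fell by 0.46 (exact permutation p = 0.0159, adjusted 0.0398), Kitl to Akt1 by 0.39 (p = 0.0317, adjusted 0.0453) and Kitl to Foxo3 by 0.38 (p = 0.0317, adjusted 0.0453). Kitl to Pik3ca (-0.28, exact permutation p = 0.0714) and Kitl to Mtor (-0.31, p = 0.119) did not pass. In 10 alternatives (each of the 9 libraries left out, and the authors' log2 values) the ratio to Tsc1 kept an exact p under 0.05 in 10 of 10. The ratio to Tsc2 lost it in 4 of 10 and the ratios to Akt1 and Foxo3 in 7 of 10, with exact permutation p up to 0.0571. With 1 library left out fewer splits are possible, so the p-values move in larger steps. The differences kept their sign, at -0.58 to -0.40 for Tsc2, -0.50 to -0.30 for Akt1 and -0.47 to -0.33 for Foxo3.

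Kit varied more between libraries of the same age than the other 7 genes. The SD of its log2 CPM within ages was 0.35, at the 73.0th percentile of all genes tested, where the median gene had 0.20. Kitl had 0.13, Foxo3 0.14, Mtor 0.12 and Tsc1 0.09, and Tsc2, Pik3ca and Akt1 had 0.08 each, at the 4.83rd to 5.9th percentile. The 3 genes whose log2 CPM followed Kit most closely over the 19 libraries were Ada, adenosine deaminase (r = 0.85), Serpina5, a serine protease inhibitor (r = 0.85), and Pde8b, a cyclic AMP phosphodiesterase (r = 0.83). After the mean of each age was subtracted the values were 0.89, 0.84 and 0.84, so the likeness was present within ages. They were the closest of all genes tested with a mean of at least 1 CPM, so r is a description and carries no p.

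In the 2 libraries at the ends of the Kit range, 6 month replicate 1 (105.7 CPM of Kit) had 136.1 CPM of Serpina5 and 16.99 CPM of Ada, and 9 month replicate 3 (43.9 CPM of Kit) had 21.1 and 11.9 CPM. The 3 month library with the least Kit, replicate 5 (54.6 CPM), also had the least Serpina5 (29.1 CPM), Ada (9.40 CPM) and Pde8b (17.9 CPM) of its age. With the mast cell marker Cpa3, a carboxypeptidase of mast cell granules, the order was different. Cpa3 was 1.29 to 3.57 CPM at 3 months, 2.83 to 5.20 CPM at 6 months, 7.46 to 23.8 CPM at 9 months and 7.10 to 10.1 CPM at 12 months, and 9 month replicate 2, with the most Cpa3, had 75.5 CPM of Kit. The summed mast cell list ran from 143 to 325.1 CPM at 3 months and from 235.5 to 296.8 CPM at 12 months, which overlap. Most of that sum was Hdc, the histidine decarboxylase gene, which was not called (0.20; edgeR adjusted p = 0.563), and the other 7 genes summed to 7.25 to 14.8 CPM and 35.2 to 46.4 CPM. Kit had an r of -0.33 with the mean of the mast cell list and 0.24 with the oocyte list (permutation p = 0.167 and 0.316, adjusted 0.596 and 0.708; rho -0.29 and 0.24, p = 0.22 and 0.331).

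**Figure D3:**
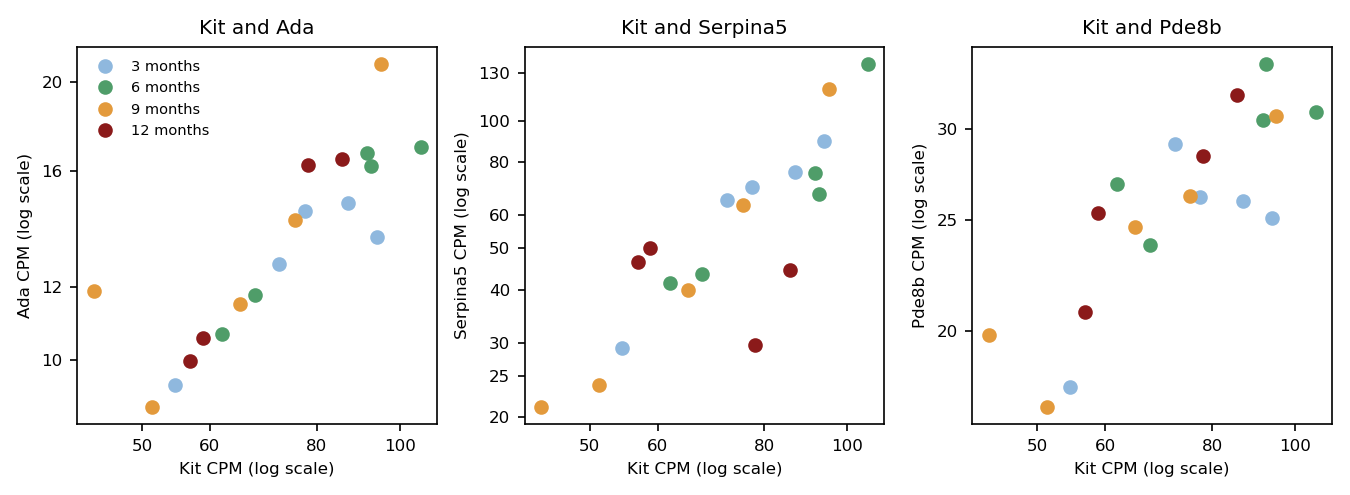
CPM of Ada, Serpina5 and Pde8b (vertical axes) against CPM of Kit (horizontal axes), all on log scales, in the 19 libraries coloured by age. Over the 19 libraries each gene follows Kit, with r between 0.83 and 0.85, though Serpina5 does not at 12 months. The 9 month libraries reach from the lowest Kit level, 43.9 CPM, to 95.1 CPM.

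Kitl was followed most closely by Zbtb33, the gene of the methyl-DNA-binding protein Kaiso (r = 0.87), Prkar1a, a regulatory subunit of protein kinase A (r = 0.82), and Ikzf5, a zinc finger gene of the Ikaros family (r = 0.81). Within ages these values were 0.62, 0.59 and 0.62, and the highest within ages belonged to Ccdc171 (0.81) and Kcns3, a potassium channel subunit (0.79). Kit and Kitl themselves had r = 0.48 over the 19 libraries (permutation p = 0.0381, adjusted over 28 pairs 0.213; rho 0.45, p = 0.0523, adjusted 0.489), 0.49 within ages and 0.54 without the 2 libraries farthest from the median. None of the 28 pairs among the 8 genes passed after adjustment. The lowest adjusted p by rank was that of Kit with Mtor (rho -0.61, permutation p = 0.00639, adjusted 0.179; r -0.44, p = 0.059, adjusted 0.275), and it was -0.40 by r without the 2 farthest libraries. Tsc2 and Mtor had r = 0.53 (permutation p = 0.0171, adjusted 0.213; rho 0.22, p = 0.353), which was -0.12 without the 2 farthest libraries and so rests on them.

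Pik3ca and Akt1 carry the signal inward. Pik3ca encodes the catalytic subunit p110-alpha of PI3K and lies on chromosome 3 from 32397671 to 32468486 (plus strand). It averaged 130.1 ± 8.31 CPM at 3 months (SD, n = 5), 126.3 ± 6.27 at 6 months (n = 5), 133.9 ± 6.33 at 9 months (n = 5) and 120.2 ± 7.95 at 12 months (n = 4). Its log2 change at 12 months was -0.11 (SE 0.059, 95% interval -0.24 to 0.01; edgeR adjusted p = 0.174). When gene length and GC content were corrected for, the change was 0.05 (edgeR adjusted p = 0.599), so its sign depends on that choice. Akt1, the kinase gene most abundant of its family here, lies on chromosome 12 from 112653821 to 112674884 (minus strand) and averaged 221.7 ± 10.5, 226.3 ± 10.4, 220.2 ± 11.2 and 220.9 ± 19.6 CPM in order of age (SD; n = 5, 5, 5 and 4). Its change at 12 months was -0.01 (SE 0.060; edgeR adjusted p = 0.958), and the 95% interval of -0.13 to 0.12 leaves room for a change of that size in either direction.

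Foxo3 encodes the FOXO factor whose loss in mice activates the whole primordial pool at once. It lies on chromosome 10 from 42181841 to 42276755 (minus strand). Its level was 33.5, 38.9, 35.6, 39.1 and 29.6 CPM at 3 months, 42.8, 37.7, 41.1, 34.0 and 36.8 CPM at 6 months, 34.0, 43.5, 39.5, 37.4 and 32.2 CPM at 9 months and 33.2, 36.7, 35.5 and 34.0 CPM at 12 months. All 12 month libraries lay inside the range of the 3 month libraries. The log2 change at 12 months was -0.02 (SE 0.097, 95% interval -0.22 to 0.18; edgeR adjusted p = 0.904). With the oocyte list as a covariate it was -0.26 (SE 0.13; edgeR adjusted p = 0.429), not called and below the first interval. Over the same ages the summed oocyte list fell from a median of 386.6 to 128.6 CPM, and Gdf9, an oocyte growth factor, fell by 1.81 on the log2 scale (SE 0.37; edgeR adjusted p = 0.00391), from 54.3 to 79.5 CPM in the 3 month libraries to 10.1 to 28.3 CPM in the 12 month libraries. The change of Foxo3 without the covariate, -0.02, did not reach a fall of that size. The value with the covariate is a change at a fixed level of the oocyte list, so it cannot be set beside that fall. Which cells made the Foxo3 RNA was not measured. Over all libraries Foxo3 was followed most closely by Wasf2, C2cd3 and Tbc1d16 (r = 0.81 each), and within ages by Flt3l (0.91) and Dnajc6 (0.82).

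Tsc1 and Tsc2 encode hamartin and tuberin, which together hold back mTOR complex 1, and Mtor encodes the kinase. Tsc1 lies on chromosome 2 from 28641228 to 28691167 (plus strand), Tsc2 on chromosome 17 from 24595816 to 24632630 (minus strand) and Mtor on chromosome 4 from 148448611 to 148557683 (plus strand). Tsc1 had means of 63.3 ± 6.26 CPM (SD, n = 5) and 63.7 ± 3.23 CPM (n = 4) at these ends of the age range, a log2 change of 0.01 (95% interval -0.13 to 0.15; edgeR adjusted p = 0.939). Tsc2 averaged 84.4 ± 3.25 CPM at 3 months (SD, n = 5), 92.3 ± 3.18 at 6 months (n = 5), 89.6 ± 6.27 at 9 months (n = 5) and 88.5 ± 6.91 at 12 months (n = 4). Its change at 12 months was 0.07 (95% interval -0.06 to 0.20; edgeR adjusted p = 0.453) and at 6 months 0.13 (unadjusted p = 0.0385, edgeR adjusted p = 0.482). Mtor went from a mean of 75.0 ± 7.46 CPM (SD, n = 5) in the youngest libraries to 71.0 ± 8.31 CPM (n = 4) in the oldest, a change of -0.08 (95% interval -0.25 to 0.09; edgeR adjusted p = 0.514). The 12 month libraries of all 3 genes overlapped with those of 3 months.

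**Figure D4:**
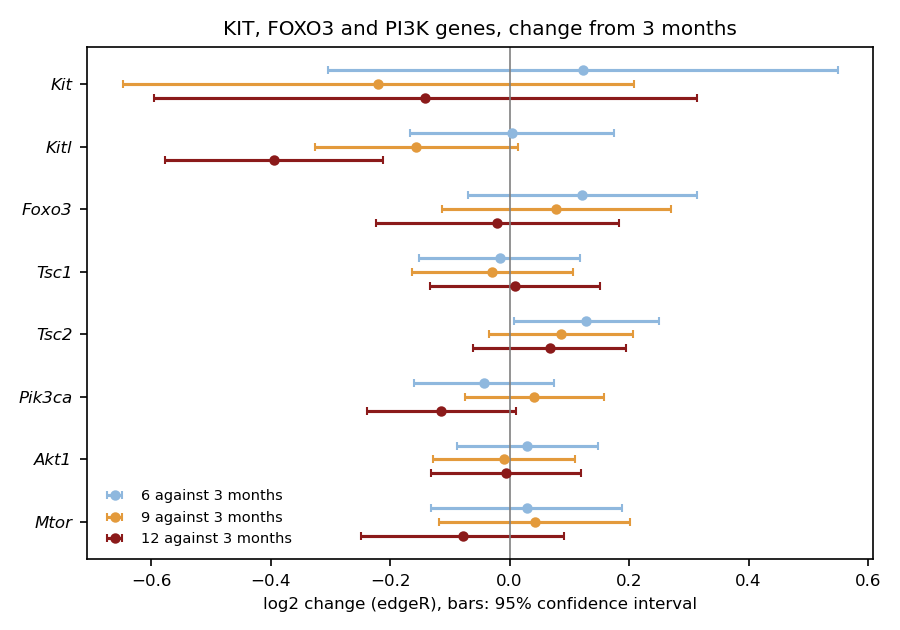
Log2 change (horizontal axis) of each of the 8 genes at 6, 9 and 12 months against 3 months, with 95% confidence intervals. The 12 month interval of Kitl, -0.58 to -0.21, lies below 0, and the Kit intervals are the widest of the 8.

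Akt1 had the highest level, 54.3 RPKM (CPM per kilobase of the union of exons, mean of the 19 libraries, with libraries from 48.6 to 59.6), followed by Kitl with 37.2 (28.1 to 48.0). Pik3ca had 14.1 RPKM (12.4 to 15.9), Tsc2 9.22 (8.12 to 10.1), Kit 8.36 (4.92 to 11.9), Mtor 7.43 (5.91 to 8.11), Tsc1 5.31 (4.67 to 5.93) and Foxo3 4.83 (3.92 to 5.74). The ranges of Akt1, Kitl and Pik3ca did not overlap with each other or with the rest, whereas Tsc2, Kit and Mtor overlapped in turn, as did Mtor, Tsc1 and Foxo3 in part. With the longest transcript in place of all exons, Kit (14.2), Tsc2 (14.2) and Pik3ca (14.4) came to the same level, so their order depends on the gene model used. Kitl per length was 40.3 ± 3.14 RPKM at 3 months (SD, n = 5) and 30.7 ± 2.88 RPKM at 12 months (n = 4), and Akt1 54.1 ± 2.56 and 53.9 ± 4.77 RPKM.

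The relatives of these genes that were not members were read beside them. Foxo1, the FOXO gene prominent in granulosa cells, stood at 64.99 ± 4.65 RPKM at 3 months (SD, n = 5) and 45.1 ± 5.12 at 12 months (n = 4), while Foxo3 was at 4.67 and 4.603, Foxo4 at 17.1 and 15.4 and Foxo6 at 2.64 and 4.77 RPKM. The 3 month libraries had 502 to 596 CPM of Foxo1 and the 12 month libraries 354 to 447, with no overlap. Foxo1 fell by 0.53 on the log2 scale (SE 0.14; edgeR adjusted p = 0.0131), a call lost in 3 of 33 alternatives, with the oviduct list (-0.39, adjusted p = 0.122) or the oocyte list (-0.02, adjusted p = 0.978) as a covariate and at an adjusted p under 0.01. Foxo6 rose by 0.85 (SE 0.14; edgeR adjusted p = 0.00108), from 6.53 to 7.36 CPM in the 3 month libraries to 10.2 to 15.1 CPM at 12 months. With the oocyte list as a covariate the change of Foxo6 was 0.47 and did not pass (edgeR adjusted p = 0.324). Few of all genes tested were called in that fit, so calls lost in it are no result about Foxo1 or Foxo6. The ratio of Foxo6 to Foxo3 rose by 0.85 (exact permutation p = 0.00794, the smallest this design allows, adjusted 0.0398) and that of Foxo1 to Foxo3 fell by 0.52 (exact permutation p = 0.0317, adjusted 0.0453). The first kept an exact p under 0.05 in 10 of 10 of those alternatives, and the second lost it in 7 of 10, at up to 0.0571. Both ratios were chosen after the changes of Foxo6 and Foxo1 were seen, and the adjustment does not cover that choice. They restate those changes and are not further support for them.

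Among the AKT genes per length, Akt1 was at 54.1 RPKM at 3 months and 53.9 at 12 months, and Akt2 at 23.1 and 23.0. Among the PI3K catalytic subunits, Pik3ca was at 14.3 and 13.2 RPKM, Pik3cd at 7.55 and 6.08, Pik3cb at 3.83 and 3.58 and Pik3cg, the form best known from blood cells, at 0.883 and 1.62. The ratio of Pik3cg to Pik3ca rose by 0.91 (exact permutation p = 0.0159, adjusted 0.0398). It lost an exact p under 0.05 in 4 of the 10 alternatives (up to 0.0571). This ratio too was chosen after its values were seen, which the adjustment does not cover. Of the receptors of the KIT class, Kit was at 8.64 and 7.84 RPKM, Pdgfra at 19.6 and 18.8, Pdgfrb at 18.3 and 15.95, Csf1r, the receptor of macrophage growth factor, at 8.08 and 10.2, and Flt3 at 0.346 and 0.560. None of the 4 other receptors of the class passed at 12 months (edgeR; Csf1r, 1 gene, with unadjusted p under 0.05).

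The wider pathway was read from 9 lists with 97 genes, of which 95 were tested. Between 3 and 12 months 12 were higher and 7 lower, where 10.9% and 11.5% of all genes tested were called, and the median log2 change of the 95 was 0.01. In the list of PI3K subunits, phosphatases and the kinase gene Pdpk1, 3 of 14 rose and 1 fell (Phlpp2), with a median of 0.10. Pik3r5, the regulatory partner of Pik3cg, rose by 1.39 (log2, SE 0.25; edgeR adjusted p = 0.0015), from 3.52 to 6.08 CPM at 3 months to 8.46 to 18.4 CPM at 12 months. Inpp5d, the phosphatase SHIP1, rose by 0.92 (SE 0.20; edgeR adjusted p = 0.0045), from 12.3 to 15.4 CPM to 16.6 to 39.3 CPM. Pik3cg rose by 0.87 (SE 0.24; edgeR adjusted p = 0.0155), a call lost in 4 of 33 alternatives: without 12 month replicate 1 (0.73, adjusted p = 0.0542), with the oviduct list (0.78, adjusted p = 0.0782) or the oocyte list (0.45, adjusted p = 0.617) as a covariate, and at an adjusted p under 0.01. With the oocyte list as a covariate Pik3r5 was at 1.13 (edgeR adjusted p = 0.22) and Inpp5d at 0.51 (adjusted p = 0.472), neither called. Because that fit called few of all genes tested, calls lost in it are no result about Pik3r5, Inpp5d or Pik3cg.

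These 3 genes are best known from blood-derived cells. Over the same ages the summed macrophage markers went from 235.3 to 328.2 CPM at 3 months to 310 to 487.3 CPM at 12 months, with Cd68 higher by 0.94 (SE 0.22; edgeR adjusted p = 0.00697), and the summed lymph node markers from 63.6 to 78.1 CPM to 86.0 to 300 CPM. Without the libraries with lymph node transcripts Pik3r5 still rose by 1.13 (edgeR adjusted p = 0.00249), Inpp5d by 0.64 (adjusted p = 0.00372) and Pik3cg by 0.73 (adjusted p = 0.0238). The part of the macrophage markers in these changes was not tested.

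Of the partners of KIT, 5 of 17 rose and 4 fell, with a median of -0.02. Sos1, an exchange factor that activates RAS, fell by 0.43 (SE 0.07; edgeR adjusted p = 0.000756), from 89.9 to 110.2 CPM in the 3 month libraries to 69.4 to 78.4 CPM in the 12 month libraries. The adaptor Shc1 rose by 0.25 (SE 0.06; edgeR adjusted p = 0.00684). With the oocyte list as a covariate Sos1 was at -0.44 (edgeR adjusted p = 0.101) and Shc1 at 0.12 (adjusted p = 0.575), neither called. That fit called few of all genes tested, so the loss of these calls is no result about the 2 genes. The SRC-family kinase Lyn (0.70), the phosphatase Ptpn6 (1.14), Sh2b3 (0.38) and Grb2 (0.19) also rose, and Ptpn11 (-0.14) and Map2k1 (-0.21) fell, genes named after their values were seen.

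In the FOXO target list 1 of 15 rose and none fell, with a median of 0.13. The gene was Gadd45a, a stress and growth arrest gene, at 67.1 to 123.4 CPM in the 3 month libraries and 103.1 to 168.7 CPM in the 12 month libraries, which overlap. It rose by 0.58 (SE 0.14; edgeR adjusted p = 0.00859), a call lost by a small margin when only these ages were fitted (adjusted p = 0.0501) and also with the oocyte list as a covariate (0.46, adjusted p = 0.422). The fit with that covariate called few of all genes tested, so the loss there is no result about Gadd45a. In the list of mTOR complexes and their output 0 of 16 passed (edgeR; 2, Rps6kb1 and Eif4e, with unadjusted p under 0.05), with a median of -0.08. Its most abundant member, the ribosomal protein gene Rps6, went from 957.5 ± 66.1 CPM (SD, n = 5) to 960.2 ± 21.4 CPM (n = 4). In the AKT and GSK3 list 0 of 5 passed (edgeR; 2 with unadjusted p under 0.05), with a median of 0.01, and Gsk3b was at 194.4 ± 8.08 and 195.7 ± 3.83 CPM.

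Of the genes that sense amino acids for mTOR complex 1, 2 of 12 tested rose, Nprl3, a GATOR1 subunit (0.35, SE 0.11; edgeR adjusted p = 0.0285), and Lamtor1, a lysosomal anchor (0.18, SE 0.06; edgeR adjusted p = 0.0424), and Lamtor4 and Lamtor5 were listed at 0 in every library, which may likewise be a failed estimate. Of the AMPK and LKB1 genes 1 of 9 fell, Prkab2 (-0.27, SE 0.096; edgeR adjusted p = 0.0483). Nprl3 lost its call in 8 of 33 alternatives, and Lamtor1 and Prkab2 in 24 of 33 each. In the trend with age 19 of the 95 rose and 13 fell, beside 14.7% and 14.8% of all genes tested.

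**Figure D5:**
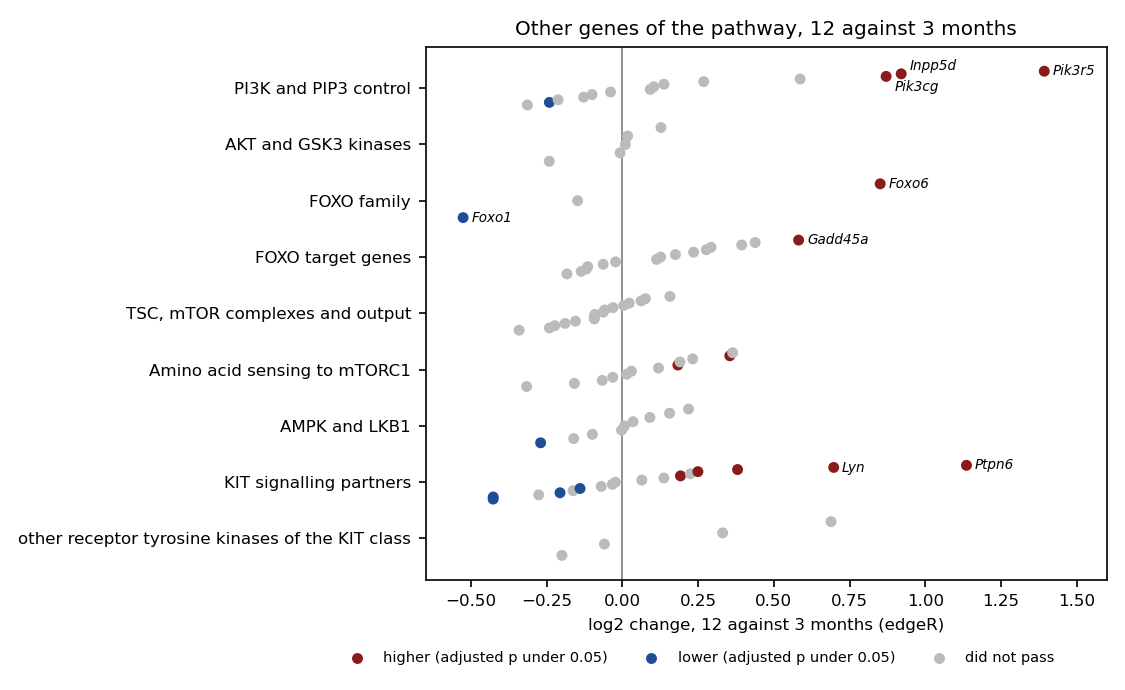
Log2 change from 3 to 12 months (horizontal axis) of the 95 tested genes of the 9 pathway lists, each point a gene, red where higher and blue where lower at an adjusted p under 0.05. Pik3r5 lies farthest right at 1.39 and Foxo1 farthest left at -0.53, and the lists of mTOR complexes and of AKT and GSK3 hold grey points alone.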

How the data were processed

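RNA of 19 ovary libraries was sequenced from libraries made with a kit that marks strand, per the labels' protocols. Per the submitters' processing notes, reads were placed on mm10. No source used here gives the aligner, the counting tool or its use of strand. The authors deposited raw values as estimated counts, which need not be whole (17.4% to 21.4% of nonzero values per library were whole within 1e-08), for 36172 genes, and log2 values whose normalization no source used here gives. These counts were rounded for count tests. Each table holds 1 further column of per-library values that matched no sample and was left out.

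Tests used edgeR 4.0.16 (quasi-likelihood, robust, TMM scaling, 1 mean per age over the 19 libraries, or age in months for the trend, given over 9 months), after a filter (minimum count 10, minimum total 15) that left 15518 genes. Adjusted p-values are Benjamini-Hochberg values over all of them, with a threshold of 0.05. CPM use TMM-scaled library totals. RPKM divide CPM by exon length (GENCODE M21). Log2 CPM for correlations used a prior count of 2, and their p-values came from 100000 permutations. Ratios were tested by exact permutation. Promoters are RefSeq's (GRCm38.p6; all 8 genes matched). The fit was checked on simulated counts.

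The genes and lists were chosen with earlier results of these data known. Named are the 8 genes, up to 3 called genes with the smallest p per pathway list (if none was called, the 1 most abundant), and the 3 genes most like a member over libraries and 2 within ages. The ratios, the relatives by level and the others named beside counts were chosen after their values were seen. Alternatives were DESeq-type factors, DESeq2 1.42.0, limma 3.58.1 (voom with weights, and on the authors' log2 values), other filters (none, or CPM of at least 1 in 4 libraries), only the ages compared, a length and GC correction (known for 95.8% of the genes tested), an adjusted p under 0.01, marker lists as covariates and libraries left out. Some genes under the rule are not reported here.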

Additional observations from a re-analysis of the deposited data

Results flagged for a closer look

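In 4 of the 32 sets of libraries checked (8 genes at 4 ages), 1 library stood apart from the others of its age by Dixon's test, which flags about 1 in 20 sets by chance. Tsc2 was at 78.1 CPM in 12 month replicate 1, where the other 3 libraries of that age lay between 91.8 and 92.0 CPM. Akt1 was at 239.9 CPM in 3 month replicate 2, with the others at 214.1 to 220.4 CPM, and at 200.7 CPM in 9 month replicate 2, with the others at 221.4 to 227.9 CPM. Mtor was at 61.9 CPM in 3 month replicate 1, with the others at 76.4 to 80.3 CPM.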

How the results depend on the processing

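No paired analysis was possible because the labels give no replicate numbers shared between ages. Of 33 alternatives, 32 kept 1 called gene of the 8 (Kitl) at 12 against 3 months, and leaving out each library in turn changed none of the 7 counts of called members. With the oocyte list as a covariate the count was 0 at 12 months, 0 in the trend and 0 for any age, and 0 of the 95 pathway genes were called. That fit called few of all genes tested at 12 months, as given for Kitl, so these counts are no result about the members. With that covariate the trend of Kitl was -0.47 (edgeR adjusted p = 0.149). With the length and GC correction 1 member (Pik3ca) was called at 9 against 6 months and 2 (Kitl and Akt1) in the trend, where Akt1 fell by 0.15 (edgeR adjusted p = 0.0253). The share of all genes called with that correction is not given here.

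The 19 pathway genes called at 12 months became 9 with the oviduct list as a covariate and 8 at an adjusted p under 0.01. The called pathway genes numbered 12 to 20 with 1 library left out, the lowest without 3 month replicate 5. Shares of all genes called in these settings are not given here. Changes near 0 turned sign, and none of these passed. At 12 months Tsc1 was -0.0126 with the corpus luteum list, -0.0428 with the oviduct list and -0.082 with the oocyte list as a covariate. Akt1 was 0.0081 with the corpus luteum list, 0.0141 without lymph node libraries, 0.047 with the oviduct list and 0.0835 with the oocyte list. Pik3ca was 0.0467 with the length and GC correction. The Akt1 trend was 0.0173 without lymph node libraries, 0.0121 with the oviduct list and 0.0626 with the oocyte list. With 1 library left out Foxo3 ran from -0.0783 to 0.0188, Tsc1 from -0.0371 to 0.049, Akt1 from -0.0655 to 0.0401 and its trend from -0.0633 to 0.0162. The cause of these shifts was not tested. Leaving out liver libraries leaves 1 library at 9 months, whose spread is assumed to be that of the other ages. With 4 or 5 libraries an age, the intervals at 12 against 3 months allow changes of up to 0.60 (log2) for Kit and 0.25 or less for the other 6 genes not called.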
